A study of Mus musculus with 22 samples.

Results

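Colon tumours of mice with a history of obesity were compared with colon tumours of mice that had none. The comparison took in all 22 tumours of the study, 16 ever-obese and 6 control, chosen by the group named in each tumour's title. All mice were males of FVB/N, an inbred laboratory strain, and every tumour, controls included, had been induced with azoxymethane, a carcinogen that acts on the rodent colon. The ever-obese set joined 3 groups. The first held 5 obese mice, kept on a diet rich in fat (60% of kcal), and the second held 6 mice on that diet that also received sulindac, an anti-inflammatory drug that blocks cyclooxygenases. The third held 5 formerly obese mice, which had been taken off that diet and put on the low-fat one. The 6 control mice ate the low-fat diet (10% of kcal) and received no sulindac. The sources used here do not give mouse ages, body weights, sulindac doses or the length of each diet. No control mouse received sulindac, and only the formerly obese group combines past obesity with the low-fat diet, so obesity history, current diet and drug cannot be told apart in the pooled comparison. The ever-obese level of a gene is the mean of the 3 group means, so that each kind of history counts equally, and every difference below is ever-obese minus control in log2 units with its standard error (SE).

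Obesity is a known risk factor for colorectal cancer. Fat tissue secretes hormones such as leptin and adiponectin, and obesity raises circulating insulin and feeds a low-grade inflammation. Azoxymethane tumours of the mouse typically arise through activated WNT signalling, which keeps epithelial cells in a stem-cell-like, dividing state. The pooled comparison addresses whether the average level of a gene over the groups with an obesity history differs from control. That average takes in every diet and drug at the end. It can be moved by only part of the groups, so the pooled comparison does not test whether a feature is shared by them.

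Each array gave a level, read as log2, for 22203 probe sets, of which 19572 carry a gene name. Array medians lay between 6.67 and 6.83, and the correlation between any 2 arrays lay between 0.947 and 0.988, so no array repeated another. Precision is limited by how many arrays there are. Colon epithelium genes were measured in both sets. The mean level of the 17 measured markers, among them the adhesion molecule gene Epcam, ran from 12.74 to 14.81 in ever-obese and from 13.09 to 14.59 in control tumours. The 12 adipocyte markers averaged 5.79 to 6.61 in ever-obese and 5.95 to 6.27 in control tumours. The samples are whole tumours, so fewer cells of a type and less RNA per cell cannot be told apart in any of the values.

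No gene passed the test. With limma and Benjamini-Hochberg adjustment over all probe sets, 0 of 22203 differed between ever-obese and control tumours at an adjusted p under 0.05 (0%), and the smallest adjusted p was 0.612. An unadjusted p under 0.05 was reached by 1034 probe sets (4.66%), against 1110 expected if no gene differed. Of these, 399 lay higher in ever-obese tumours (1.8%) and 635 lay lower (2.86%). Over all probe sets 50.4% of differences were above 0 and 49.6% below, with a median of 0.0016. The 5th and 95th percentiles of the differences were -0.33 and 0.36 log2 units. The median SE was 0.166, so a typical gene's difference was known to about that much. Because no gene passed, the genes below are described by their levels, and none is reported as changed.

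**Figure D1:**
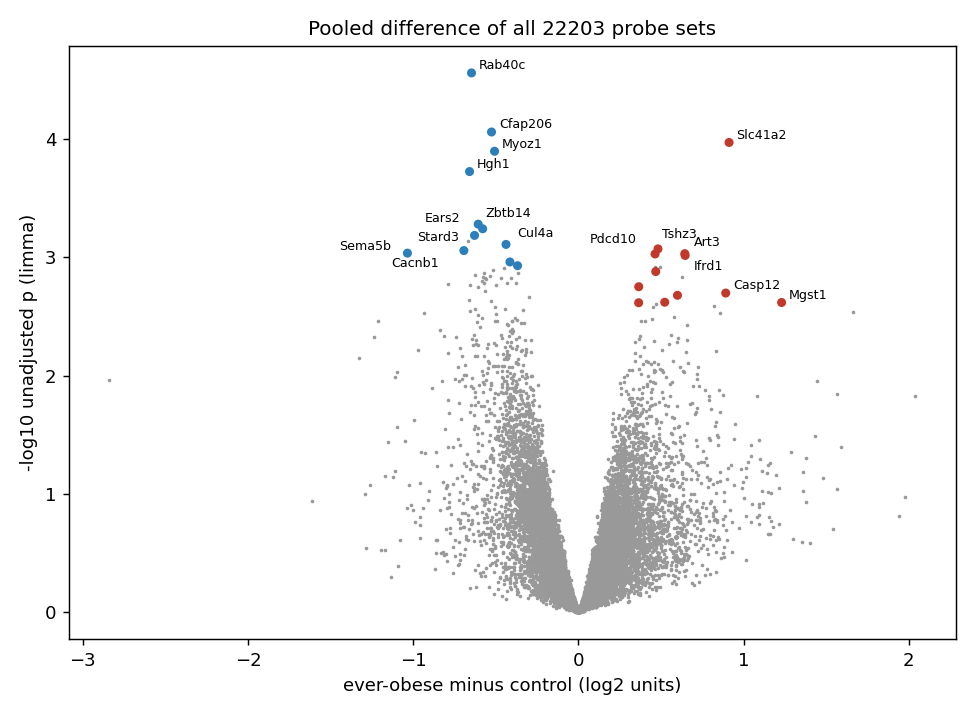
Each point is a probe set, placed by its pooled difference (ever-obese minus control, log2 units, horizontal) and by -log10 of its unadjusted limma p (vertical). Blue and red points are the 12 named genes with the smallest p in each direction; Rab40c is at the top at -0.65, and its adjusted p is 0.612.

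The gene with the smallest p was Rab40c, which encodes a Rab-family GTPase that recruits targets to a ubiquitin ligase. Its level was 8.42, 8.96 and 9.25 at the lowest, median and highest of the 16 ever-obese tumours, against 9.39, 9.54 and 9.71 in the 6 control tumours. Every ever-obese tumour lay below every control tumour, and Rab40c was the only named gene with full separation in either direction (1 probe set of 22203, 0.0045%). The pooled difference was -0.65 ± 0.12 log2 units (limma adjusted p = 0.612). The 3 component differences, which share the 6 control arrays, were -0.64, -0.65 and -0.64 for obese, obese sulindac and formerly obese tumours. Rab40c is singled out because its p is the smallest of all, so its separation is a description. A probe set without a gene name showed full separation in the other direction, at 4.98, 5.52 and 6.16 in ever-obese tumours and 4.73, 4.86 and 4.97 in control tumours, a difference of 0.63 ± 0.17 (limma adjusted p = 0.936).

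The other genes among the 12 lowest by p overlapped the controls, and levels given as 3 numbers are again the lowest, median and highest tumour of a set. Stard3, which moves cholesterol between endosomes and the endoplasmic reticulum, was at 10.64, 11.47 and 12.08 in ever-obese tumours and 11.72, 12.13 and 12.61 in control tumours, a difference of -0.63 ± 0.16, and 11 of 16 ever-obese tumours lay below all controls. Hgh1, a chaperone partner of a translation elongation factor known from yeast, was at 6.52, 7.01 and 7.78 in ever-obese and 7.40, 7.64 and 8.04 in control tumours, a difference of -0.66 ± 0.15, with 13 of 16 below all controls. Ears2, the mitochondrial glutamyl-tRNA synthetase, differed by -0.58 ± 0.14, and Cul4a, a scaffold of ubiquitin ligases, by -0.44 ± 0.11. For Ears2 6 of 16 ever-obese tumours lay below all controls, and for Cul4a 10 of 16 did. Cacnb1, a calcium channel subunit gene, differed by -0.69 ± 0.18, and Esrp2, which regulates splicing in epithelia, by -0.41 ± 0.11 with 11 of 16 below all controls. Sema5b, a semaphorin gene, differed by -1.03 ± 0.27. Control Mouse_26 alone held Sema5b at 8.04, and without it the difference was -0.66.

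The remaining genes of the 12 included several with low levels. Myoz1, a muscle Z-disc protein gene, was at 4.22, 4.50 and 4.90 in ever-obese tumours and 4.84, 5.04 and 5.22 in control tumours, with 14 of 16 below all controls, a difference of -0.51 ± 0.11. Cfap206, a gene of cilia and flagella, was at 4.06, 4.51 and 5.02 in ever-obese and 4.67, 5.02 and 5.19 in control tumours and differed by -0.53 ± 0.11, with 14 of 16 below. Fam216b differed by -0.37 ± 0.10 with a median of 4.13 in ever-obese and 4.52 in control tumours, and the zinc finger gene Zbtb14 differed by -0.61 ± 0.15. For the 12 genes lowest by p, the unadjusted limma p ran from 2.76e-05 to 0.00118 and the adjusted p from 0.612 to 0.936. Levels near the bottom of the range, which starts at 3.34, give no sign of whether a gene was above background.

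Among genes higher in ever-obese tumours, the smallest p belonged to Slc41a2, a magnesium transporter gene. It was at 7.28, 8.03 and 8.87 in ever-obese tumours and 6.58, 7.17 and 7.73 in control tumours, and 12 of 16 lay above all controls. The difference was 0.91 ± 0.19 (adjusted p = 0.703), made up of 1.33, 0.78 and 0.62 in obese, obese sulindac and formerly obese tumours. Ccz1, which activates the endosomal GTPase Rab7 together with its partner Mon1, had 14 of 16 above all controls and differed by 0.47 ± 0.13. Pdcd10, an adaptor gene known from cerebral cavernous malformation, was at 11.07, 11.52 and 12 in ever-obese and 10.80, 11.03 and 11.36 in control tumours and differed by 0.46 ± 0.12. For Tshz3, a zinc finger transcription factor gene, the difference was 0.48 ± 0.12 with 13 of 16 above all controls. These 4 genes lay higher in each of the 3 ever-obese groups than in control tumours by 0.41 to 1.33.

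The other genes highest by p overlapped the controls more or differed between histories. Ifrd1, a transcriptional co-regulator, differed by 0.65 ± 0.17. Art3, of the ADP-ribosyltransferase family, differed by 0.64 ± 0.17, with 0.22, 0.97 and 0.75 in the 3 groups, so that obese tumours lay closest to the controls. Casp12, a caspase gene linked to the endoplasmic reticulum, differed by 0.89 ± 0.25 and Cep128, a centriole gene, by 0.60 ± 0.17. Mgst1, a membrane-bound glutathione transferase gene, had the largest difference of the 12 at 1.23 ± 0.36, yet only 8 of 16 ever-obese tumours lay above all controls. Ifi27l2a, an interferon-induced gene, differed by 0.52 ± 0.15, Creg2 by 0.37 ± 0.10 and Rnf14, a ubiquitin ligase gene, by 0.37 ± 0.11. Creg2 was the 1 gene of these 12 with a mean level under 5. The unadjusted p of the 12 ran from 1.07e-04 to 0.00242 and the adjusted p from 0.703 to 0.995.

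**Figure D2:**
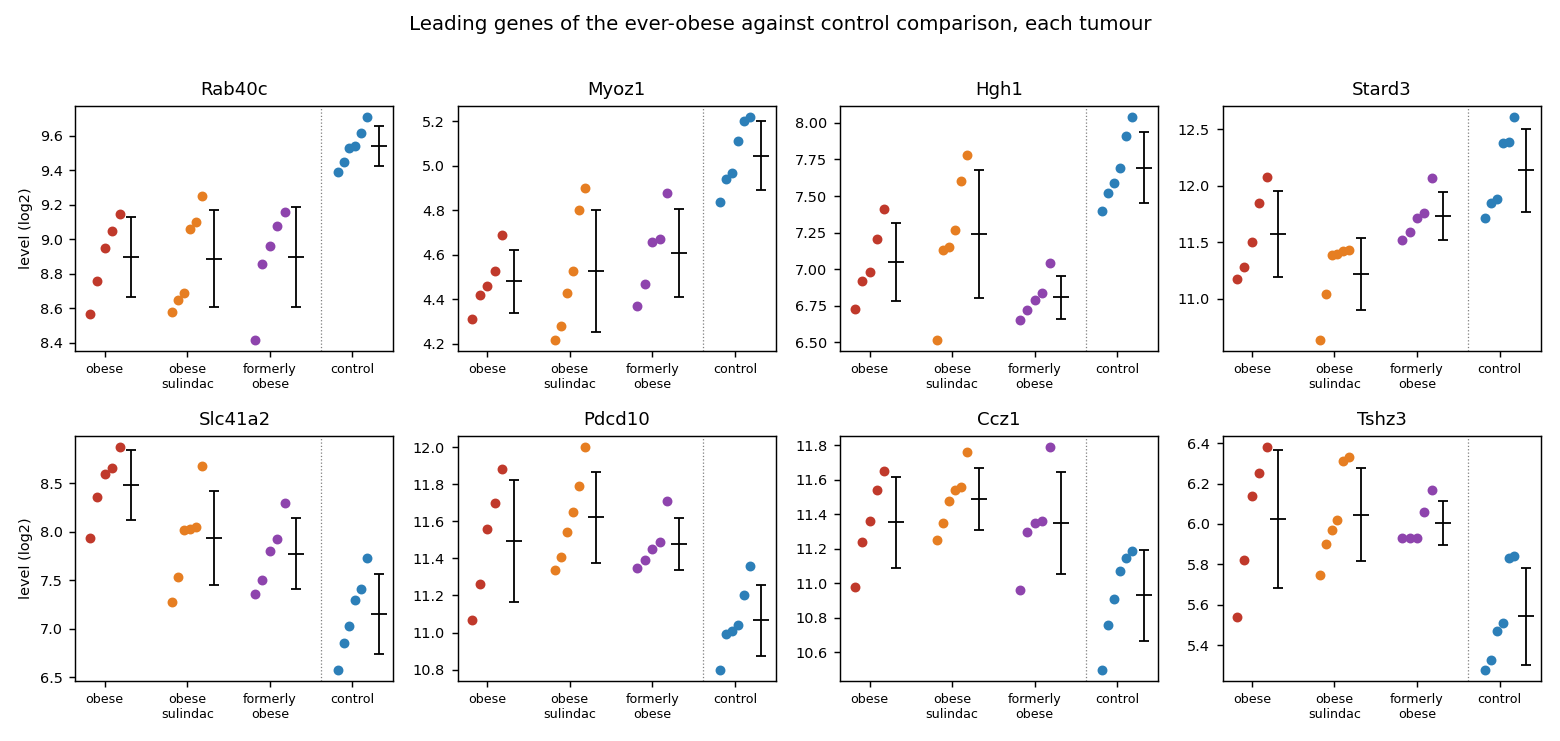
Level (log2, vertical) of 8 of the leading genes in each tumour, one panel a gene; points are tumours ordered by level within a group, and bars are mean ± SD. Obese, obese sulindac and formerly obese tumours stand to the left and the 6 control tumours to the right; for Rab40c all 16 ever-obese points lie below the lowest control, at 9.39.

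The spread among tumours was close in both sets. For each tumour, the median over probe sets of its distance from its own group mean was taken, with a correction for group size. It averaged 0.244 ± 0.0216 over the 16 ever-obese tumours and 0.241 ± 0.0274 over the 6 control tumours (SD). The difference was 0.00314, with a two-sided permutation p of 0.780 over the 74613 ways to choose 6 of 22 tumours. The distances were computed once, and tumours of a group share an estimated mean, so this p is approximate. Ever-obese tumours ran from 0.208 to 0.282 and control tumours from 0.212 to 0.283, so the ranges nearly coincided.

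The 3 histories were also tested against each other. The limma F test among obese, obese sulindac and formerly obese tumours called 0 of 22203 at an adjusted p under 0.05, with a smallest adjusted p of 0.658, and 1452 (6.54%) at an unadjusted p under 0.05. Each group set alone against the controls also gave 0 genes, with 894 (4.03%), 1473 (6.63%) and 1231 (5.54%) probe sets at an unadjusted p under 0.05 for obese, obese sulindac and formerly obese tumours. Among the named genes with the smallest F test p was Mmrn1, which encodes a protein of platelets and endothelium. It was at 5.98 ± 0.56 in obese, 7.30 ± 0.43 in obese sulindac and 6.0 ± 0.28 in formerly obese tumours (SD), beside 6.12 ± 0.68 in control tumours. Pcif1, an mRNA cap methyltransferase gene, was at 10.72 ± 0.20, 11.61 ± 0.49 and 10.71 ± 0.26 in the same order, beside 11.16 ± 0.37 in control tumours. In Tcirg1, a subunit gene of the proton pump of acidic vesicles, the values were 10.36 ± 0.47, 10.71 ± 0.08 and 9.79 ± 0.21, beside 10.10 ± 0.37 in control tumours. Pygl, the liver form of glycogen phosphorylase, had 0.17, 0.99 and -0.26 as its differences from control. In all 4 genes the obese sulindac group had the highest mean of the 3 histories, although none passed adjustment (limma F test, smallest adjusted p 0.658). Vstm2a differed from control by 0.04, 0.30 and 0.77, highest in the formerly obese group. Its mean level was under 5, and control Mouse_27 was at 4.76 with the other controls at 4.24 or below.

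The genes of inflammation lay mostly higher in ever-obese tumours, without any passing the test. Of 27 measured cytokine, chemokine and NF-kB target genes, 25 lay higher and 2 lower, with a median difference of 0.33, where 0 higher and 0 lower reached an unadjusted p under 0.05, against 1.8% and 2.86% of all probe sets. The median over all probe sets was 0.0016. By group the list median was 0.79 in obese, 0.23 in obese sulindac and 0.25 in formerly obese tumours, and the pooled one ran from 0.22 without control Mouse_26 to 0.55 without control Mouse_30. Tnfaip3, a brake on NF-kB signalling, was at 9.48, 12.08 and 13.55 in ever-obese tumours and 9.73, 10.93 and 12.17 in control tumours, a difference of 0.91 ± 0.46. Without control Mouse_26 the difference of Tnfaip3 was 0.64. Cxcl2, a neutrophil-attracting chemokine gene, was at 8.25, 11.68 and 15.32 in ever-obese tumours and 6.83, 10.39 and 13.09 in control tumours, and differed by 1.57 ± 0.88. Both sets spanned more than 4 log2 units for Cxcl2 and overlapped, and without control Mouse_20 its difference was 0.89. Cxcl5, a related chemokine gene, differed by 1.36 ± 0.77, and by 0.64 without control Mouse_20. The interleukin gene Il1b lay at 0.36 ± 0.71, Il6 at 0.31 ± 0.46 and Tnf, the tumour necrosis factor gene, at 0.60 ± 0.41. With a mouse left out, Il1b ran from 0.01 without control Mouse_26 to 0.78 without control Mouse_30, and Il6 from 0.11 without formerly obese Mouse_140 to 0.60 without control Mouse_30. Tnf ran from 0.44 to 0.95 with a mouse left out, the highest without control Mouse_27.

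Immune cell markers mostly lay higher in obese and obese sulindac tumours, but macrophage and neutrophil medians lay below 0 in formerly obese ones. Macrophage and monocyte markers were higher in the pooled comparison in 19 of 21, with a median of 0.24 and mean levels of 8.61 to 10.15 in ever-obese and 8.41 to 9.89 in control tumours. Their medians by history were 0.33, 0.35 and -0.07 in obese, obese sulindac and formerly obese tumours, and the pooled one was 0.09 without control Mouse_26. Neutrophil markers were higher in 12 of 17, with a median of 0.16 and mean levels of 5.82 to 8.11 in ever-obese and 5.94 to 7.28 in control tumours. Their medians by history were 0.38, 0.19 and -0.17, and the pooled one was 0.01 without control Mouse_20. The T cell list had 13 of 18 higher, with a median of 0.17, by history 0.12, 0.14 and 0.09, that was 0.02 without control Mouse_26 and 0.27 without control Mouse_30. The B and plasma cell list had 11 of 14 higher, with a median of 0.27, by history 0.24, 0.42 and 0.18, that was 0.14 without formerly obese Mouse_152. Mast cell and eosinophil markers had a median of 0.23, with 0.03 without control Mouse_26 and 0.41 without control Mouse_30. The part of these cells in the cytokine and interferon values was not tested. The immunoglobulin joining chain gene Jchain differed by 1.15 ± 0.66, and by 0.48 without control Mouse_26.

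Every measured member of the interferon and antigen presentation list lay higher in ever-obese tumours, 29 of 29, with a median of 0.36. None reached an unadjusted p under 0.05, where 1.8% of all probe sets did so in that direction. The list median was 0.08 in obese, 0.61 in obese sulindac and 0.54 in formerly obese tumours, which share the control arrays. Leaving out 1 mouse at a time moved it between 0.08 and 0.67, the lowest without control Mouse_26 and the highest without control Mouse_30. Gbp2, an interferon-induced GTPase gene, was at 8.42, 11.08 and 13.33 in ever-obese and 8.32, 9.77 and 12 in control tumours, a difference of 1.16 ± 0.57. Ido1, which degrades tryptophan and dampens T cells, differed by 1.98 ± 1.17 at 5.09, 8.63 and 13.50 in ever-obese and 4.83, 7.03 and 11.67 in control tumours. Mx1, an antiviral effector, differed by 0.56 ± 0.37. The sets overlapped, with 6 of 16 ever-obese tumours above all controls for Gbp2 and 6 of 16 for Ido1.

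Genes for antimicrobial and acute phase proteins of the epithelium had the largest list median. Of 22 measured, 18 lay higher and 4 lower, with a median of 0.54 that was 0.20 without control Mouse_26 and 0.84 without control Mouse_32. By history it was 0.60, 0.62 and 0.49 in obese, obese sulindac and formerly obese tumours. Saa3, an acute phase serum amyloid gene, was the 1 member with an unadjusted p under 0.05, which 1.8% of all probe sets reached in that direction. It was at 9.07, 10.39 and 13.33 in ever-obese tumours and 8.05, 9.17 and 9.85 in control tumours, with 13 of 16 above all controls. The difference was 1.66 ± 0.49, or 3.16-fold, with a 95% interval of 0.64 to 2.69, and an adjusted p of 0.995 in limma. It was 2.17, 1.24 and 1.58 in obese, obese sulindac and formerly obese tumours. Slc6a14, an amino acid transporter gene, differed by 1.0 ± 0.54 and Duoxa2, the maturation factor of a hydrogen peroxide-producing oxidase, by 1.01 ± 0.69. With a mouse left out Duoxa2 ran from 0.73 to 1.53, the highest without control Mouse_30.

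Among the hormones and receptors of fat tissue, Lepr and Nampt lay higher at an unadjusted p under 0.05, as 1.8% of all probe sets did. Lepr, the leptin receptor gene, was at 7.51, 8.74 and 10.53 in ever-obese tumours and 7.05, 7.87 and 8.5 in control tumours, a difference of 0.83 ± 0.35 that ran 1.05, 0.87 and 0.57 over the 3 histories. Nampt, which makes a precursor of NAD and is also secreted, differed by 0.40 ± 0.18, at 9.99, 10.57 and 11.23 in ever-obese tumours and 9.61, 10.27 and 10.73 in control tumours. With a mouse left out Lepr ran from 0.67 to 0.96 and Nampt from 0.28 to 0.50. Both were lowest without control Mouse_26, where their unadjusted limma p was 0.084 and 0.145. The genes for leptin and adiponectin, Lep and Adipoq, had differences of -0.04 ± 0.17 and 0.10 ± 0.16 around medians of 4.46 and 4.26 in ever-obese tumours and 4.62 and 4.14 in control tumours. These medians lay near the bottom of the range, where a level gives no sign of whether the gene was above background. In the list of 16 genes, 11 lay higher and 5 lower, with a median of 0.07 that was 0.14 without control Mouse_26. Socs3, an inhibitor of cytokine and leptin signalling, differed by 0.53 ± 0.43, from 0.28 without control Mouse_20 to 0.84 without control Mouse_30.

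Insulin and IGF signalling genes lay lower in 14 of 23 cases, with a median of -0.10 made of -0.0017, -0.04 and -0.28 by history. Rptor, a subunit gene of the growth regulator mTORC1, was at 8.65, 9.37 and 9.88 in ever-obese tumours and 9.47, 9.72 and 9.96 in control tumours and differed by -0.35 ± 0.16. The insulin receptor gene Insr differed by -0.19 ± 0.16 and the growth factor gene Igf1 by -0.01 ± 0.36. Igfbp2, which encodes an IGF-binding protein, had the largest difference of the list at -1.29 ± 0.75. It rested on control Mouse_26, whose level was 14.0, and without it the difference was -0.0024. The median of the list without control Mouse_32 was 0.01.

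The WNT target and stem cell genes lay mostly lower. Of 20 measured, 16 were lower and 4 higher, with a median of -0.12, and 4 reached an unadjusted p under 0.05 in the lower direction, where 2.86% of all probe sets did. These were Sox9, Ascl2, Cd44 and Myc. Sox9, a transcription factor of the crypt base and of Paneth cells, was at 14.41, 15.48 and 16.21 in ever-obese tumours and 15.66, 16.06 and 16.41 in control tumours, a difference of -0.63 ± 0.20 with 11 of 16 below all controls. Ascl2, a stem cell transcription factor gene that is also imprinted, was at 6.79, 8.02 and 9.17 in ever-obese tumours and 8.05, 8.79 and 9.15 in control tumours and differed by -0.71 ± 0.23. The adhesion receptor gene Cd44 differed by -0.55 ± 0.19 and the growth regulator gene Myc by -0.44 ± 0.19. All 4 lay lower in each history. The differences were -0.33, -0.96 and -0.61 for Sox9, -0.48, -0.71 and -0.95 for Ascl2, -0.36, -0.77 and -0.53 for Cd44 and -0.34, -0.49 and -0.50 for Myc, in the order obese, obese sulindac, formerly obese. The stem cell marker Lgr5 had 0.91, -0.79 and -1.55 and a pooled difference of -0.48 ± 0.72, so the 3 groups did not share a direction. The list median was -0.10, -0.26 and -0.34 by history. The pooled one was -0.29 without control Mouse_20 and -0.07 without control Mouse_17.

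**Figure D3:**
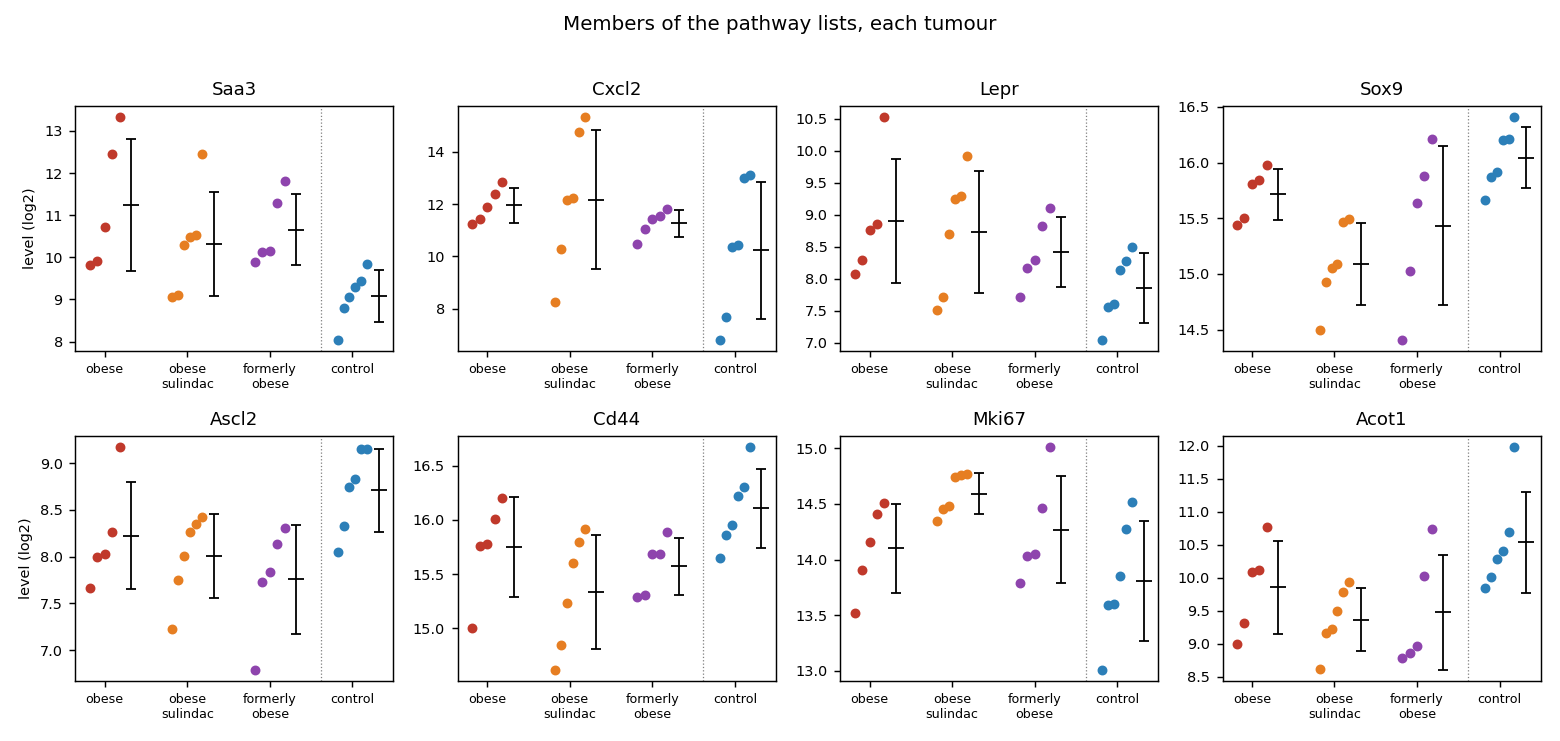
Level (log2, vertical) of 8 members of the pathway lists in each tumour, one panel a gene; points are tumours ordered by level within a group, and bars are mean ± SD. Obese, obese sulindac and formerly obese tumours stand to the left of the 6 control tumours; Saa3 reaches 13.33 in ever-obese tumours and 9.85 in controls.

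Cell cycle genes lay higher in 17 of 26 cases, with a median of 0.18, and 3 reached an unadjusted p under 0.05 in the higher direction, where 1.8% of all probe sets did. Mki67, the proliferation marker, was at 13.52, 14.43 and 15.01 in ever-obese tumours and 13.01, 13.73 and 14.52 in control tumours, a difference of 0.51 ± 0.20. With a mouse left out Mki67 ran from 0.35 to 0.66. It was lowest without control Mouse_32, where its unadjusted limma p was 0.076. Cenpa, which marks the centromere, differed by 0.58 ± 0.24 and Ccna2, cyclin A, by 0.57 ± 0.25, or by 0.37 without control Mouse_32. The genes of the DNA-unwinding MCM complex, chosen after their values were seen, lay the other way, with Mcm2 at -0.22, Mcm3 at -0.13, Mcm4 at -0.23, Mcm5 at -0.23 and Mcm6 at -0.10. The list median was 0.19 in obese, 0.33 in obese sulindac and 0.13 in formerly obese tumours, and the pooled one ran from 0.09 without control Mouse_20 to 0.32 without control Mouse_26.

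Genes of the unfolded protein response, which relieves the endoplasmic reticulum of misfolded protein, lay higher in 22 of 25 cases but by a median of only 0.10, which was 0.04 without control Mouse_26 and 0.15 without control Mouse_27. By history it was 0.15, -0.04 and 0.20, and 3 members reached an unadjusted p under 0.05, where 1.8% of all probe sets did in the higher direction. Xbp1, the transcription factor at its centre, was at 13.77, 14.56 and 15.26 in ever-obese tumours and 13.86, 14.16 and 14.53 in control tumours, and differed by 0.35 ± 0.15. Its 3 components were 0.69, 0.02 and 0.34, with the sulindac group near 0. Dnajc3, an inhibitor of the kinase PERK, differed by 0.27 ± 0.12, with a median of 12.55 in ever-obese and 12.12 in control tumours. Trib3, a pseudokinase gene, differed by 0.32 ± 0.15, or by 0.24 without control Mouse_20, where its unadjusted limma p was 0.147. Xbp1 differed by 0.28 without control Mouse_26, with an unadjusted limma p of 0.083. Dnajc3 ran from 0.24 to 0.34 with a mouse left out.

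Genes of fatty acid oxidation and PPAR targets lay lower in 18 of 28 cases, with a median of -0.10, and 2 reached an unadjusted p under 0.05 in the lower direction, where 2.86% of all probe sets did. The median was -0.15 without control Mouse_26 and -0.05 without formerly obese Mouse_140. Angptl4, a PPAR target that inhibits lipoprotein lipase, was at 6.16, 7.46 and 8.11 in ever-obese tumours and 7.58, 7.99 and 8.67 in control tumours and differed by -0.61 ± 0.20. Its components were -0.11, -1.0 and -0.72, smallest in obese tumours. Acot1, a fatty acyl-CoA thioesterase gene, was at 8.61, 9.41 and 10.77 in ever-obese and 9.85, 10.35 and 11.98 in control tumours, a difference of -0.97 ± 0.32 with 10 of 16 below all controls, and -0.68 without control Mouse_26. The entry enzyme Cpt1a differed by -0.07 ± 0.18 and the pyruvate dehydrogenase kinase Pdk4 by 0.21 ± 0.78. Fatty acid synthesis genes were split, 10 higher and 8 lower, with a median of 0.03. Cholesterol genes were higher in 11 of 15, with a median of 0.11 that ran from 0.02 without control Mouse_20 to 0.18 without control Mouse_30, and the epoxidase gene Sqle at 0.40 ± 0.23.

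For the prostaglandin pathway, which sulindac acts on, 10 genes lay higher and 13 lower, with a median of -0.03. The cyclooxygenase gene Ptgs1 was listed but not among the 23 measured members. Ptgs2, the inducible cyclooxygenase gene, was at 7.68, 9.35 and 12.74 in ever-obese tumours and 8.21, 10.03 and 11.09 in control tumours, a difference of 0.01 ± 0.61. Its component differences were 0.51, -0.72 and 0.25, with the obese sulindac group the lowest. Ptges2, a prostaglandin E synthase, differed by -0.29 ± 0.14. It was the 1 member of 23 with an unadjusted p under 0.05, which 2.86% of all probe sets reached in the lower direction. It lay at -0.21 in obese, 0.02 in obese sulindac and -0.69 in formerly obese tumours. Lta4h, which makes leukotriene B4, differed by -0.45 ± 0.23 and Ptger2, a prostaglandin E receptor, by 0.30 ± 0.19. Without control Mouse_26 they differed by -0.29 and 0.19.

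The other pathway lists had medians between -0.06 and 0.13. Hypoxia and glycolysis genes had a median of 0.02, with Pfkfb3, a regulator of glycolytic flux, at 0.72 ± 0.28 and the kinase Pdk1 at -0.46 ± 0.22. In the respiratory chain list (0.04), the complex I gene Ndufs1 lay at 0.31 ± 0.13. The NRF2 and p53 target lists had medians of -0.05 and -0.06. In them the quinone reductase gene Nqo1 differed by -0.58 ± 0.38, the cell cycle inhibitor gene Cdkn1a by -0.41 ± 0.20 and the cell death gene Pmaip1 by 0.77 ± 0.37, or 0.51 without control Mouse_26. The chromatin list was split, 18 higher and 12 lower. In it Tet2, which oxidises methylated cytosine, lay at 0.47 ± 0.16, and Dnmt3a, a de novo DNA methyltransferase, at 0.43 ± 0.17. These 2 of the 30 members reached an unadjusted p under 0.05 in the higher direction, where 1.8% of all probe sets did. Tet2 was at 11.08, 11.50 and 12.55 in ever-obese tumours and 10.69, 11.02 and 11.46 in control tumours, with 10 of 16 above all controls. Among imprinted genes (median -0.02) Gnas, a G protein subunit gene, differed by -0.28 ± 0.12. Clock genes had a median of 0.09 with Cry1 at 0.44 ± 0.21, and bile acid and xenobiotic genes 0.13, with the bile acid receptor gene Nr1h4 at 1.14 ± 0.59. Mgmt, which repairs the DNA damage that alkylating agents such as azoxymethane metabolites cause, differed by -0.40 ± 0.39, and by -0.0047, -0.63 and -0.56 in obese, obese sulindac and formerly obese tumours. Without control Mouse_17 the pooled difference was -0.02, and without control Mouse_26 it was -0.64.

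**Figure D4:**
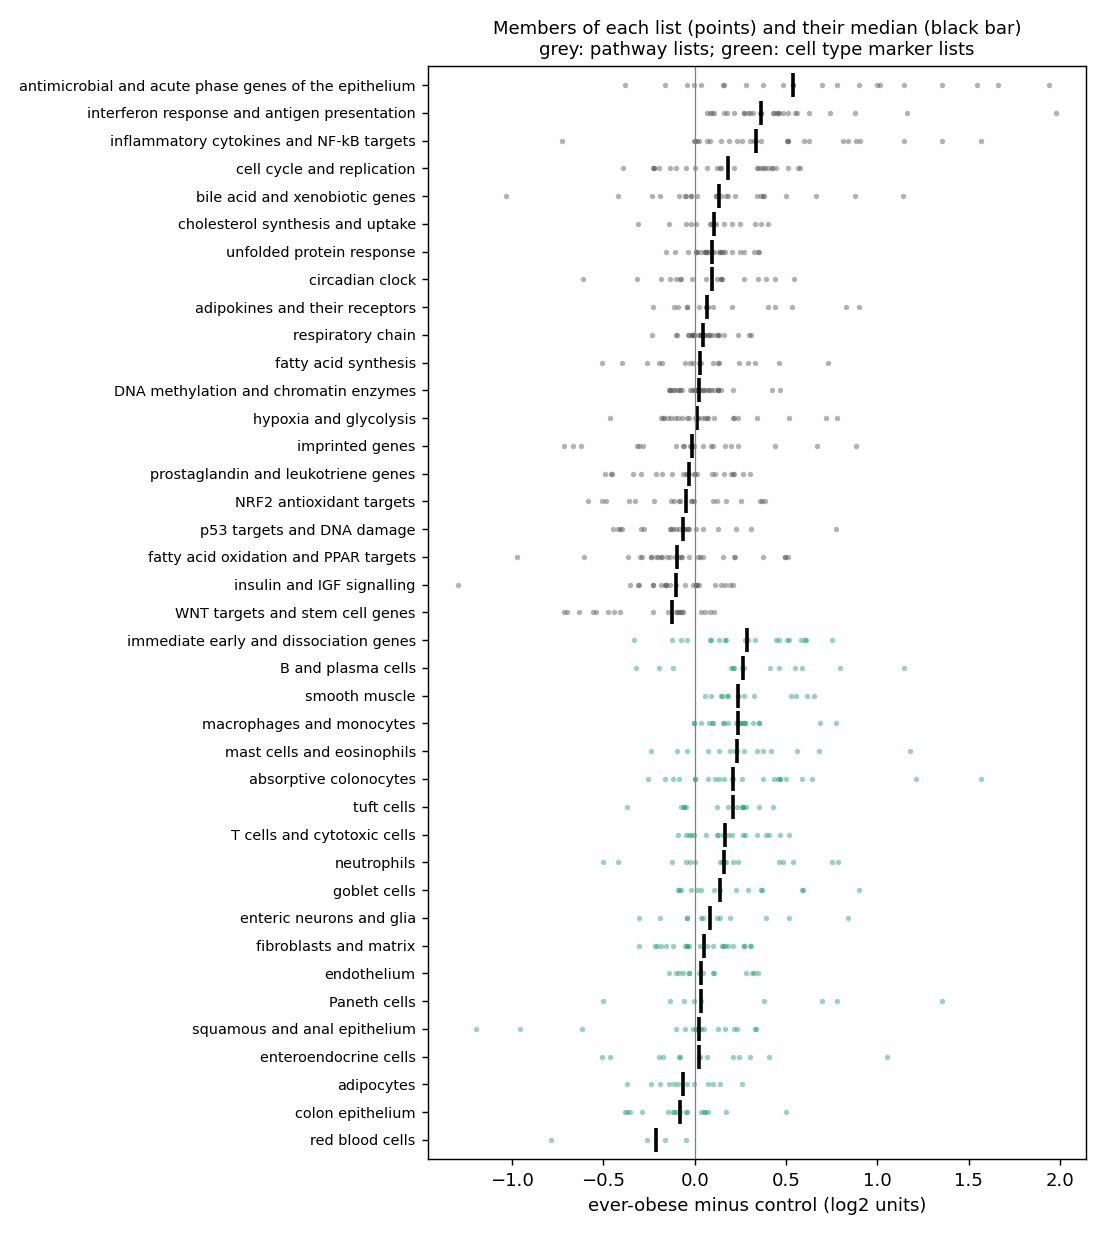
Pooled difference (ever-obese minus control, log2 units, horizontal) of every measured member of the 39 gene lists, one row a list, with the list's median marked. The median over all probe sets is 0.0016, and no member of any list passed an adjusted p under 0.05.

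Markers of the cell types a colon tumour can hold gave little separation. Smooth muscle markers lay higher in all 14 measured, with a median of 0.24. None reached an unadjusted p under 0.05, where 1.8% of all probe sets did so in that direction. Their median by history was 0.03, 0.33 and 0.34 in obese, obese sulindac and formerly obese tumours. Their mean level ran from 7.77 to 10.17 in ever-obese and from 7.85 to 8.28 in control tumours, and without formerly obese Mouse_134 the median was 0.15. Colon epithelium markers were lower in 11 of 17, with a median of -0.08, by history -0.28, -0.07 and 0.08. It ran from -0.21 without control Mouse_26 to 0.01 without control Mouse_20. Absorptive colonocyte markers were higher in 19 of 23 (median 0.21), but the median by history was -0.20, 0.21 and 0.73, so obese tumours lay on the other side of the controls. The pooled median was 0.01 without formerly obese Mouse_134 and 0.48 without control Mouse_20. The list includes the proton-potassium pump gene Atp12a. Atp12a was at 5.38, 9.04 and 11.39 in ever-obese tumours and 6.36, 7.20 and 8.78 in control tumours, a difference of 1.57 ± 0.59 made of 0.33, 2.22 and 2.15 over the histories. The anion exchanger gene Slc26a3 differed by 0.64 ± 0.84, by history -0.86, 0.99 and 1.80, from 0.28 without formerly obese Mouse_134 to 1.13 without control Mouse_20. The caudal homeobox gene Cdx2 differed by -0.37 ± 0.97, from -0.91 without control Mouse_26 to 0.39 without control Mouse_20. Goblet cell, enteroendocrine and Paneth lists had medians of 0.14, 0.03 and 0.03. By history the goblet cell median was -0.26, 0.20 and 0.53 and the enteroendocrine one -0.45, 0.06 and 0.30, both below 0 in obese tumours. With a mouse left out the goblet cell median ran from -0.04 without control Mouse_27 to 0.54 without control Mouse_20. The Paneth list's Wnt3 gene, with a mean level under 5, lay at -0.50 ± 0.22, and at -0.22 without control Mouse_26. It was the 1 member of 9 with an unadjusted p under 0.05, which 2.86% of all probe sets reached in the lower direction. Fibroblast and endothelial lists had medians of 0.05 and 0.04, by history 0.22, 0.35 and -0.41 for fibroblasts and 0.18, 0.22 and -0.18 for endothelium. The adipocyte markers were lower in 8 of 12 (-0.07). Tuft cell, enteric nerve and squamous epithelium lists had medians of 0.21, 0.08 and 0.03. By history the tuft cell median was 0.17, 0.44 and 0.01, and the pooled one was 0.10 without control Mouse_20. Of the 14 tuft cell markers, 5 had a mean level under 5.

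**Figure D5:**
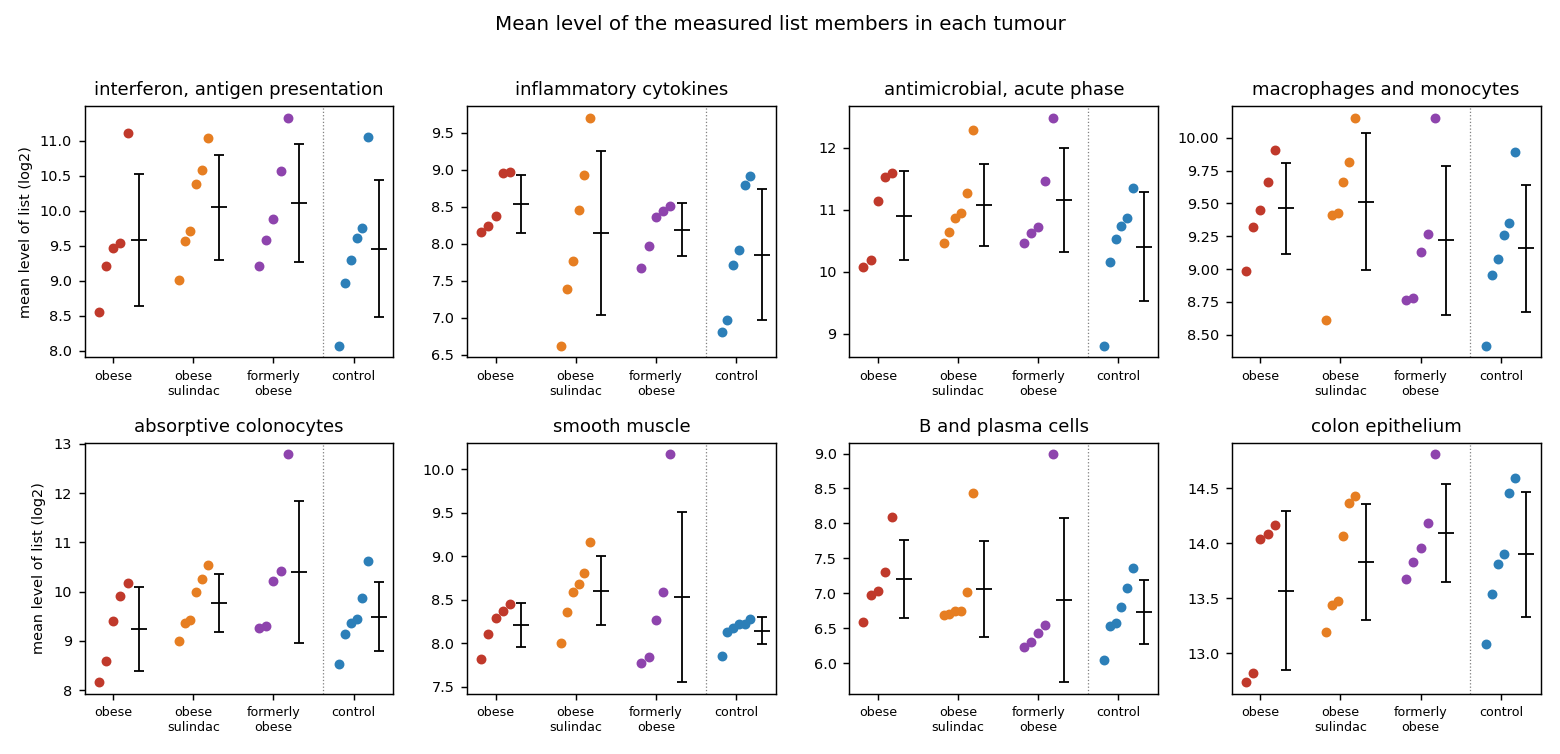
Mean level (log2, vertical) of 8 gene lists in each tumour, with points for tumours ordered by level within a group and bars for mean ± SD. Obese, obese sulindac and formerly obese tumours stand to the left of the control tumours; the ranges of the sets overlap in every panel.

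By size alone, chosen after values were seen, the widest differences were those of Slc38a4 and Ly6m. Slc38a4, an amino acid transporter gene, was at 5.16, 7.26 and 12.38 in ever-obese tumours and 7.89, 9.81 and 14.85 in control tumours, a difference of -2.84 ± 1.02 (adjusted p = 0.995 in limma) with 10 of 16 below all controls. Its components were -2.07, -1.80 and -4.64, and without control Mouse_26 the pooled difference was -2.04. Ly6m, of the Ly6 surface protein family, was at 7.14, 11.33 and 13.70 in ever-obese and 7.88, 8.78 and 12.81 in control tumours, a difference of 2.04 ± 0.77. Reg3b, which encodes a bactericidal lectin, differed by 1.94 ± 1.31. With a mouse left out it ran from 1.11 to 3.34, the highest without control Mouse_27. Each of these genes varied over at least 5 log2 units among the tumours. The reproductive homeobox gene Rhox5 lay at 0.46 ± 0.20, carried by obese tumours at 1.09, with 0.22 in obese sulindac and 0.06 in formerly obese tumours.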

How the data were processed

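RNA of 22 colon tumours was measured on Clariom S arrays. The deposited log2 levels, with 2 decimals, were used as given: Transcriptome Analysis Console 4.0 is named per the submitters' processing notes, while the sources used here do not give the probe summarization, background correction, normalization, genome build or logarithm base. Base 2 was read from the range of values, 3.34 to 19.49, so every log2 difference rests on it. Array medians of 6.67 to 6.83 show a common scale, which makes each level relative to its own array. Of 22203 probe sets, 19572 carry 1 gene symbol and 2631 none, and 254 held values identical to another's. For 55 symbols there were several probe sets. Where such a gene was a list member or always named, the probe set with the highest mean was used. The tests, the counts over all probe sets and the genes picked by p or by size drew on every probe set.

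A model with 1 mean per group was fitted in R 4.3.3 with limma 3.58.1 (lmFit, eBayes) to all probe sets, with no filter on dim signals. The pooled contrast averages the 3 ever-obese group means and subtracts the control mean. Adjusted p-values are Benjamini-Hochberg values over all 22203 probe sets, two-sided, with a threshold of 0.05. The spread among tumours had an exact two-sided permutation test. Exact tests of single genes were run but are not printed, since the genes were chosen on the same values. Each title carries a different mouse number, except that of a sulindac tumour marked X, and the groups have no number in common, which leaves the mice unpaired; labels give no batch, litter or date. The script was tested on simulated data.

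The text names, in each direction, the 12 genes with the smallest p, since none passed the threshold, up to 3 members of each of 39 gene lists by smallest p, 5 genes of the F test, and a set of genes always named. Predicted genes, clones, microRNA genes and chemosensory receptors are counted but not named. The comparison, the lists and the naming rule were chosen with earlier results of these data known, so lists are described by counts and medians without a test. Alternatives were each mouse left out in turn, each history left out, 1 group of 16 tumours, quantile normalization, median centring, array weights, trend and robust eBayes, and a minimum mean level of 5.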

Additional observations from a re-analysis of the deposited data

Results flagged for a closer look

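Single tumours stood far from the rest of their own group in 63 of the 808 groups of values checked, or 7.8%, by Dixon's test at 95%, where chance alone marks about 1 in 20. The values below are log2 levels of the tumour that stood apart, and no explanation was tested.

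Among ever-obese tumours, obese Mouse_113 stood apart for Hnf4a (11.28), Igf1 (17.72), Lgr5 (13.69), Nts (4.63), Pmaip1 (9.87) and Sh2d6 (4.43), and for the mean levels of bile acid and xenobiotic genes (6.57) and imprinted genes (7.54). Obese Mouse_96 did so for Aen (9.56), Cidea (5.91), Sqle (9.72), Uqcrfs1 (11.99) and the tuft cell list (6.59). Obese Mouse_107 did so for Casp12 (8.30), Cfap206 (5.02), Epb42 (5.10) and the immediate early list (10.60), and obese Mouse_101 for Sct (4.96), Slc51b (4.48) and Tmigd1 (8.17).

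In the obese sulindac group, Mouse_131 stood apart for Rhox5 (5.21), Sh2d6 (6.21), the prostaglandin and leukotriene list (9.34) and the tuft cell list (7.83). Mouse_114 did so for Cpt1a (10.92), Ptgs2 (11.69) and Zbtb14 (9.01), and Mouse_125 for the B and plasma cell list (8.44). Mouse_X did so for Mmp7 (10.70) and Pdk4 (13.82), and its median distance from the group mean was 0.281.

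In the formerly obese group, Mouse_134 stood apart for Adipoq (5.27), Cldn3 (15), Nts (6.41), Zbtb14 (8.15) and the adipocyte list (6.61). Mouse_152 did so for Jchain (17.43), Ret (9.52), the B and plasma cell list (8.99) and the chromatin enzyme list (9.75). Mouse_140 did so for Il6 (8.10), Pdk1 (9.58), Taldo1 (10.33) and the mast cell and eosinophil list (8.47), and Mouse_146 for Igfbp6 (4.38) and Ly6m (9.70).

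Among control tumours, Mouse_26 stood apart for Igfbp2 (14.0), Cma1 (5.35), Lta4h (12.25), Me1 (5.42), Pmaip1 (9.02), Sema5b (8.04) and Sh2d6 (6.59), and for the chromatin enzyme (10.44) and enteroendocrine (7.32) lists. Mouse_27 did so for Vstm2a (4.76), Zbtb14 (8.46), and the fatty acid synthesis (10.31) and smooth muscle (7.85) lists. Mouse_30 did so for Cd163 (5.13) and Ly6m (12.81), Mouse_20 for Krt4 (5.95) and Mouse_17 for Vil1 (12.80).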

How the results depend on the processing

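In each of 31 alternatives, 22 that leave out 1 mouse and 9 others, the pooled comparison called 0 genes, and the smallest adjusted p ran from 0.257, with the 16 tumours as 1 group, to 0.9997. The number at an unadjusted p under 0.05 was 1034 and ran from 922 to 1214 with a mouse left out. Among the other alternatives it was highest at 1263, without the obese group, and lowest at 675, with a minimum mean level of 5. The minimum level leaves fewer probe sets to test, so its counts cannot be set directly against the others. That setting also gave 227 higher ones, and 569 for obese and 784 for formerly obese tumours against control. Formerly obese against control called 0 to 1 genes with a mouse left out, the 1 without formerly obese Mouse_152. The difference in spread ran from -0.0044 to 0.0149 and turned negative without control Mouse_17, Mouse_30 or Mouse_32. Of the 162 named genes, 149 kept their direction throughout and 13 did not. Left-out mice took Ptgs2 over -0.30 to 0.28, Igf1 over -0.20 to 0.16, Pdk4 over -0.14 to 0.52, Lep over -0.12 to 0.0158, Cdx2 over -0.91 to 0.39, Cpt1a over -0.16 to 0.0442, Lgr5 over -1.13 to 0.0812 and Slc4a1 over -0.30 to 0.0474. With the 16 as 1 group Ptgs2 was -0.0325. Without the obese group, Ptgs2 was -0.24, Pdk4 -0.0553 and Lep 0.0403. Without the obese sulindac group, Lyve1 was -0.0877, Mmrn1 -0.13, Tcirg1 -0.024 and Pygl -0.0427. Without the formerly obese group, Pcif1 was 0.0087, Lgr5 0.0588, Ptgs2 -0.10 and Igf1 0.27. Igf1 was 0.0071 after quantile normalization, and Ptgs2 -0.0012 after median centring. With array weights, Ptgs2 was -0.024, Pdk4 -0.11 and Lep 0.025. The cause of these reversals was not tested. The median of none of the 39 lists moved by more than 1 SD of the list's mean level between tumours within groups. That SD is not the error of a median difference, so it cannot show that the medians were stable. With a mouse left out, some list medians crossed 0, such as fibroblasts at -0.12 to 0.18 and enteroendocrine cells at -0.07 to 0.34. Others kept their sign, such as smooth muscle at 0.15 to 0.30. No paired analysis was possible because the groups share no replicate numbers.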

Other observations

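Immediate early genes, which respond within minutes to growth factors, stress or tissue handling, lay higher in 16 of 20 cases in ever-obese tumours, with a median of 0.29. By history the median was 0.11, 0.07 and 0.69 in obese, obese sulindac and formerly obese tumours, so it lay furthest from 0 in the formerly obese group, and without formerly obese Mouse_134 the pooled one was 0.13. Zfp36, which destabilises cytokine mRNA, was at 10.01, 10.61 and 11.85 in ever-obese tumours and 9.68, 10.08 and 11.10 in control tumours, a difference of 0.52 ± 0.25 with an adjusted p of 0.995 in limma. The phosphatase gene Dusp1 differed by 0.58 ± 0.38 and the transcription factor gene Klf6 by 0.44 ± 0.30, or 0.27 without control Mouse_27. Both overlapped the controls widely, with 5 and 2 of 16 ever-obese tumours above all of them.

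Of 4 red blood cell genes measured, 4 lay lower, with a median of -0.21, or -0.08 without control Mouse_27, and by history -0.04, -0.26 and -0.31. The haem synthesis gene Alas2 had differences of 0.19, -1.26 and -1.28 in obese, obese sulindac and formerly obese tumours, which share the control arrays, so obese tumours lay on the other side of the controls. Among squamous genes, Krt4, a keratin gene, had -1.80, -0.28 and -0.80, while Sbsn differed by 0.34 ± 0.14 at levels of 4.62, 5.04 and 5.58 in ever-obese tumours and 4.38, 4.69 and 5.15 in control tumours. The neural receptor gene Ret lay at 0.84 ± 0.46, and the gut hormone gene Pyy, from enteroendocrine cells, at 1.05 ± 0.65 with 0.49, 1.91 and 0.76 over the histories.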
